A study of Mus musculus with 8 samples.

Results

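Neurons that are depolarised switch on a small set of genes within minutes, before any new protein is made. Part of this set are the zinc finger transcription factors of the Egr family and the orphan nuclear receptors of the Nr4a family, together with Npas4, Arc and Homer1, 3 genes used as readouts of synaptic activity. These 10 genes (Egr1, Egr2, Egr3, Egr4, Nr4a1, Nr4a2, Nr4a3, Arc, Npas4 and Homer1) were followed in the whole retina of Lpcat1 wildtype (WT) and knockout (KO) mice. They were found on the array as every probe whose RefSeq transcript belongs to 1 of the 10 symbols, which gave 10 of 20014 named genes and 15 of 55681 probes: 5 for Homer1, 2 for Nr4a2 and 1 for each of the others.

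LPCAT1 is an acyltransferase that remodels phosphatidylcholine, and it was removed from the whole animal. Retinas of C57BL/6 mice aged 2 weeks were sampled, 4 samples from WT and 4 from KO, and each was hybridised to its own array. The KO line was made on a C57BL6/N background and crossed to C57BL6/J, and animals homozygous for the rd8 mutation were not used. Animals were kept in a normal light and dark cycle, or for some experiments in darkness in the first days of life. The hour and the light state at which retinas were taken, and whether each sample was 1 animal, are not given in the sources used here, so p-values measure the spread between these samples. In such bulk RNA, fewer cells of a type and less RNA per cell cannot be told apart.

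Activity reaches these promoters by 2 main routes. Calcium and cAMP act through CREB, which binds the cAMP response element, and kinase signals act through serum response factor at the CArG box. The proteins made then act on a later wave of genes, and several bind or restrain their own family: Egr factors bind a GC-rich site and are held back by the corepressors Nab1 and Nab2, Nr4a receptors act without a known ligand and can pair with RXR, and Npas4 pairs with Arnt proteins. Arc and Homer1 instead work at the synapse, Arc in the endocytosis of glutamate receptors and Homer1 in the scaffold that links metabotropic receptors to calcium stores.

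The 250 bases before the start site of Nr4a1 and Npas4, both higher in KO, and of Nr4a2, which missed the threshold, are shown from RefSeq (build GRCm38.p6), 5′ to 3′ on the strand of the gene, with matches to the cAMP response element core TGACG on either strand in capitals. In the Nr4a1 window the capitals also mark 1 match to the Egr site GCGGGGGCG, read on the opposite strand, which does not overlap the other matches.

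Nr4a1, chr15:101266596-101266845, + strand: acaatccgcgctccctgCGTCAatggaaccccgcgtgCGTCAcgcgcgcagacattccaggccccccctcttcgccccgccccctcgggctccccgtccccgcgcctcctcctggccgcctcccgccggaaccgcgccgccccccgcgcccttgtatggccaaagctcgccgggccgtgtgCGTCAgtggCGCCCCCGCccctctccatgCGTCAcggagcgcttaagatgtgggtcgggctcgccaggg

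Npas4, chr19:4989972-4990221, - strand: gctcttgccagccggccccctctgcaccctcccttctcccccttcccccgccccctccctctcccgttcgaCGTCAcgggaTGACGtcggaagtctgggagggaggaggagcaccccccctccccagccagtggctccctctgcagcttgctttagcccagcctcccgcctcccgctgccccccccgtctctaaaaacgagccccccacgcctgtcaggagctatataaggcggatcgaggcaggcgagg

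Nr4a2, chr2:57124004-57124253, - strand: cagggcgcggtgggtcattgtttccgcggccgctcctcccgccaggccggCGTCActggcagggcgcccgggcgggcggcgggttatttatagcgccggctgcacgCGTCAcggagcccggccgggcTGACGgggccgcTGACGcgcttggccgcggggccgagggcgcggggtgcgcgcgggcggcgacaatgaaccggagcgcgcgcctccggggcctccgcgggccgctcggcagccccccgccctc

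Windows of this kind were given for 7 of the 10 genes. Egr1, Egr3 and Arc had none, so their promoters were not searched for any of these sites. TGACG on either strand occurred in 17.8% of 32851 windows of all genes and in at least 1 window of each of the 7. The 7 genes had 12 windows, and some windows of Egr2 and Homer1 held 0 matches. The share per window and the count per gene are thus not in the same unit. Nr4a1, Nr4a2 and Nr4a3 held 4 matches each, Homer1 held 3, and Egr2, Egr4 and Npas4 held 2. The full palindrome TGACGTCA (1.55% of all windows) and the Nr4a site AAAGGTCA (1.34%) occurred in 0 of the 7, and the Egr site (2.57%) in Nr4a1 alone. In Nr4a1 it lay 60 to 52 bases before the start. Among the 7 genes searched, the CArG box (1.47% of all windows) was found in windows of Egr2 alone. Its 2 places are shown here with 10 bases on each side and the box in capitals. These are matches of letters, searched on both strands, and binding was not measured.

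Egr2, chr10:67537484-67537513, + strand: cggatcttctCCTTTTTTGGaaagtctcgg

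Egr2, chr10:67537787-67537816, + strand: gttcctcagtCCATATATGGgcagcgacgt

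A level is the log2 processed signal after subtraction of its array's 75th percentile, so that each unit is a doubling of signal and 0 is that percentile. A difference is KO minus WT in these log2 units, given with its standard error (SE) and the limma p, Benjamini-Hochberg adjusted over every tested probe. Testing required that a probe clear background in all 4 WT or all 4 KO samples, and calls required a fold change over 1.2 with an adjusted p below 0.05. All 8 arrays lay on 1 slide, WT in one row and KO in the other, so row and genotype cannot be told apart, and samples with the same number shared a column of the slide. Between 33110 and 36366 probes per array were well above background, and 0 spots were saturated. Of 33972 tested probes, 992 (2.92%) were called, 470 higher and 522 lower in KO. This split moved to 581 higher of 953 when arrays were scaled on probes detected everywhere, to 629 of 970 under cyclic loess and to 424 of 702 under a normexp background correction. Leaving out 1 array gave 369 (without WT 2) to 1183 calls (without KO 1). Lpcat1 itself stood at -0.41 ± 0.03 in WT and -0.87 ± 0.06 in KO (SD, n = 4), a KO signal 0.72 times that of WT (SE 0.04 on the log2 scale, adjusted p = 0.0036), and the position of its probe relative to the deleted part is not given in the sources used here.

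Of the 10 genes, 7 were measurable in both genotypes. Each of their 12 probes cleared background on all 8 arrays. Egr1, Nr4a1, Npas4 and Arc were called higher in KO, which is 4 of 7 tested genes beside 2.19% of 14935 tested genes, and 0 of 7 were called lower (1.77% of all). Egr4, Nr4a2 and Homer1 did not pass. At an unadjusted limma p under 0.05, 5 of the 7 genes were higher and 0 lower, beside 23.8% of all tested probes in either direction, and the methods' t-test after adjustment also called 4 higher and 0 lower. The median difference of the 7 genes was 0.31, beside -0.02 for all tested genes. At the level of probes, 10 of 12 were higher and 2 lower in KO, and 5 of 12 had all 4 KO values above all 4 WT values, as did 6.05% of all tested probes. Separation in either direction was seen in 17.5% of all tested probes. Egr2, Egr3 and Nr4a3, with 1 probe each, were not well above background on any array and were not tested.

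**Figure D1:**
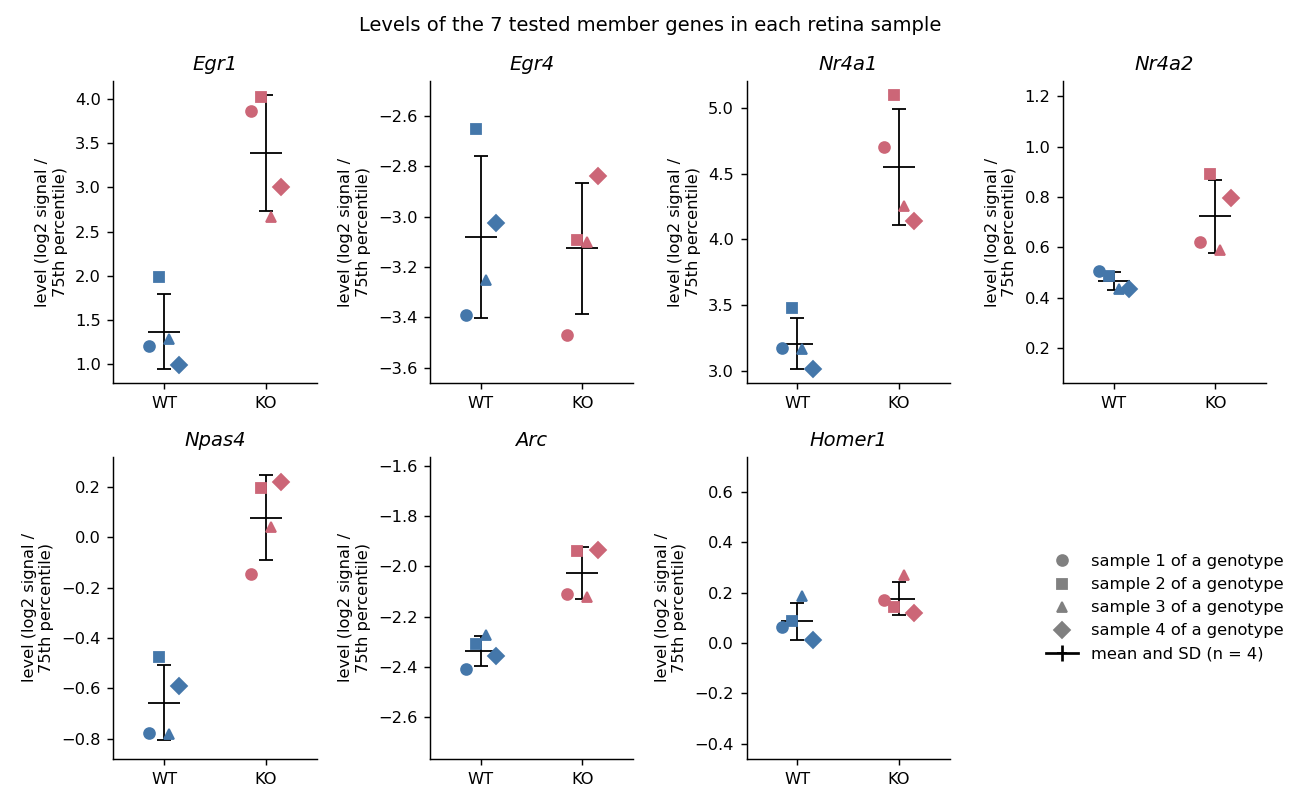
Level of the 7 tested genes in each retina sample (log2 signal, 0 is the array's 75th percentile), with the probe of highest mean where a gene has several; marker shapes give the sample number, and black bars the mean and SD of 4 samples. The KO samples of Egr1 lie between 2.67 and 4.03, all above the highest WT sample at 1.98, and WT and KO are also separate for Nr4a1, Nr4a2, Npas4 and Arc; axes differ between panels.

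Egr1 is the founding Egr factor and responds to growth factors as well as to activity. It was at 1.2, 1.98, 1.29 and 0.99 in WT samples 1 to 4 and at 3.86, 4.03, 2.67 and 3.01 in KO samples 1 to 4. The genotypes did not overlap, and the KO samples fell into a higher pair (1 and 2) and a lower pair (3 and 4). Egr1 rose from 1.36 ± 0.43 in WT to 3.39 ± 0.66 in KO (SD, n = 4), a difference of 2.03 with an SE of 0.34 (4.08-fold, limma adjusted p = 0.0206). Only 1 of the 33972 tested probes rose by more. Egr1 was also among the most variable probes within a genotype: its SD was at percentile 99.1 of all tested probes in KO and at 99.0 in WT. The call was lost without WT 1, WT 3, WT 4 or KO 2, where the adjusted p reached 0.0608 and the difference ranged from 1.82 to 2.27 over the 8 arrays left out in turn. With no filter on dim probes it was lost as well (adjusted p = 0.0693).

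Egr4, a brain-enriched Egr factor, did not pass the test. It was at -3.39, -2.65, -3.25 and -3.02 in WT 1 to 4 and at -3.47, -3.09, -3.10 and -2.84 in KO 1 to 4. The values of the genotypes were interleaved, with the lowest of all 8 in KO 1 and the highest in WT 2. The difference was -0.05 (SE 0.18, adjusted p = 0.902), with a 95% confidence interval from -0.46 to 0.37, and its sign turned under cyclic loess and without WT 2 or KO 1 (0.10 and 0.07).

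Egr2 and Egr3 gave signals at the floor of the array. Egr2, known best for its role in myelination and hindbrain patterning, gave processed signals of 4.51, 5.03, 4.96 and 5.31 in WT 1 to 4 and of 17.6, 27.8, 20.2 and 15.6 in KO 1 to 4. Every KO signal was above every WT signal, yet none of the 8 was well above background and no fold is given. The dimmest probe that cleared background stood at 18.1 to 20.9 on the WT arrays and 18.9 to 28.1 on the KO arrays. When dim probes were tested too, Egr2 had an adjusted p of 0.0088. Egr3, which in brain follows Egr1, gave 18.3, 17.8, 15.2 and 9.89 in WT and 12.5, 21.2, 6.2 and 10.8 in KO, with the genotypes overlapping. Its WT 1 signal was over the 18.1 of that array, but its own spot was not marked well above background.

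**Figure D2:**
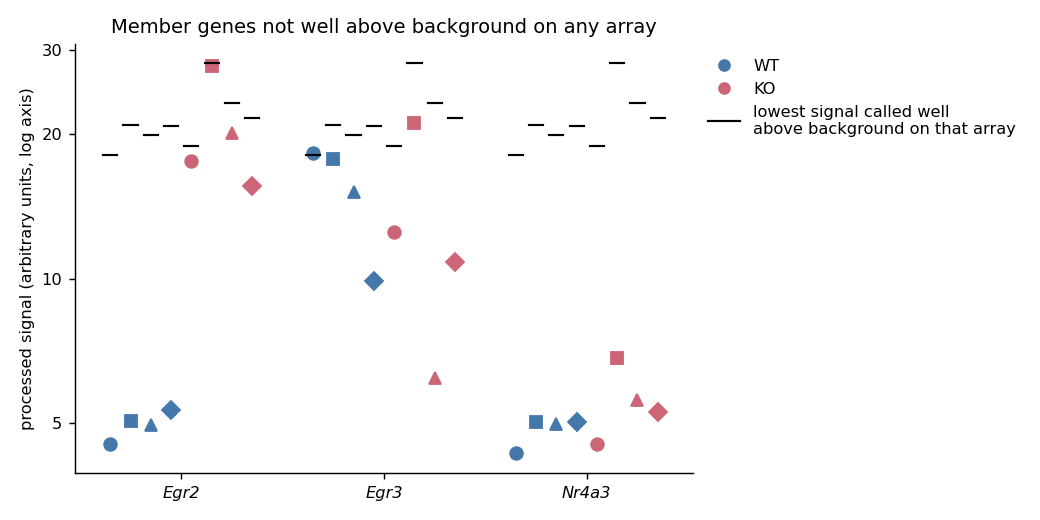
Processed signal (arbitrary units, log axis) of Egr2, Egr3 and Nr4a3 in the 4 WT samples (blue) and 4 KO samples (red), samples 1 to 4 from left to right in each; black lines give the dimmest signal that cleared background on the same array. Egr2 signals are 4.51 to 5.31 in WT and 15.6 to 27.8 in KO, all below their line, and Egr3 and Nr4a3 overlap between genotypes.

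Nr4a1 (Nur77), an orphan receptor induced in neurons by activity and in lymphocytes by antigen, also rose. It was at 3.17, 3.48, 3.16 and 3.01 in WT 1 to 4 and at 4.71, 5.10, 4.26 and 4.14 in KO 1 to 4. Again no KO sample reached down to the WT range, samples KO 1 and KO 2 were the 2 highest, and WT 2 was the highest of WT. Nr4a1 rose from 3.21 ± 0.20 to 4.55 ± 0.44 (SD, n = 4), by 1.35 with an SE of 0.21 (2.54-fold, limma adjusted p = 0.0162). Its KO spread stood at percentile 97.2 of all tested probes. The call was lost without WT 3 (adjusted p = 0.0514) and with no filter on dim probes (0.0591).

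Nr4a2 (Nurr1), required for midbrain dopamine neurons, was measured by 2 probes that differed. The brighter was at 0.51, 0.48, 0.44 and 0.43 in WT 1 to 4 and at 0.62, 0.89, 0.59 and 0.80 in KO 1 to 4. All KO values were above all WT values, with KO 2 the highest and KO 3 the lowest of KO. The difference of 0.26 (1.196-fold, SE 0.07, 95% confidence interval 0.10 to 0.42) was just under the required fold change and had an adjusted p of 0.0721. It was called only when arrays were weighted by quality (0.0472). Under limma with trend and robust options its adjusted p was 0.0190, at the same fold. The second probe gave -1.77 ± 0.08 in WT and -1.70 ± 0.12 in KO, a difference of 0.07 (SE 0.07, adjusted p = 0.567; interval -0.09 to 0.24), and its genotypes overlapped.

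Nr4a3 (NOR-1), the third member of the family, was printed 10 times on the array. Averaged over its unflagged spots, it gave processed signals of 4.31, 5.01, 4.96 and 5.01 in WT 1 to 4 and of 4.52, 6.84, 5.59 and 5.27 in KO 1 to 4. KO 1 lay within the WT range, none of the 8 was well above background, and the adjusted p was 0.216 when dim probes were tested too.

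Npas4, a bHLH-PAS factor induced selectively by depolarisation and calcium entry, rose as well. It was at -0.78, -0.48, -0.78 and -0.59 in WT 1 to 4 and at -0.15, 0.20, 0.04 and 0.22 in KO 1 to 4. The lowest KO sample, KO 1, was above the highest WT sample, and KO 1 was thus the lowest of KO here although it was among the 2 highest for Egr1 and Nr4a1. The means were -0.66 ± 0.15 and 0.08 ± 0.17 (SD, n = 4), a difference of 0.73 with an SE of 0.10 (1.66-fold, limma adjusted p = 0.0118). Npas4 was the only one of the 4 called genes that kept its call without each of the 8 arrays in turn (adjusted p up to 0.0419, without KO 2), and it kept it in the other alternatives tried.

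Arc, a cytoskeleton-associated protein that travels to active synapses, rose least of the 4 called genes. It was at -2.41, -2.31, -2.27 and -2.36 in WT 1 to 4 and at -2.11, -1.94, -2.12 and -1.93 in KO 1 to 4. The genotypes were separate, with KO 2 and KO 4 above KO 1 and KO 3. The difference of 0.31 (SE 0.06, 1.24-fold, limma adjusted p = 0.0303, n = 4) was close to the threshold of both size and p. The call held in 2 of 8 fits that left out 1 array, those without KO 1 or KO 3, with an adjusted p of up to 0.0819 (without KO 2) in the others. It also ended under a median shift (adjusted p = 0.0616), with no filter on dim probes (0.0919), with the slide column as a block (0.0654) and after normexp, where the difference fell to 0.22.

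Homer1 was measured by 5 probes, 3 assigned to transcript NM_011982 and 2 to NM_147176. Its short activity-induced form lacks the coiled coil of the long forms and loosens their scaffold, but which form each probe reads could not be settled from the files. The brightest probe (A_55_P1982111) was at 0.06, 0.09, 0.18 and 0.01 in WT 1 to 4 and at 0.17, 0.14, 0.27 and 0.12 in KO 1 to 4. KO 1, KO 2 and KO 4 lay within the WT range and the difference was 0.09 (SE 0.05, adjusted p = 0.341). The other probes differed by 0.18, 0.11, 0.16 and -0.02, with adjusted p of 0.273 to 0.874, and the genotypes overlapped for all 5. The 95% confidence intervals together spanned -0.18 to 0.42. The negative value, of probe A_66_P104134, turned its sign under cyclic loess and without WT 1, WT 3 or KO 2.

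**Figure D3:**
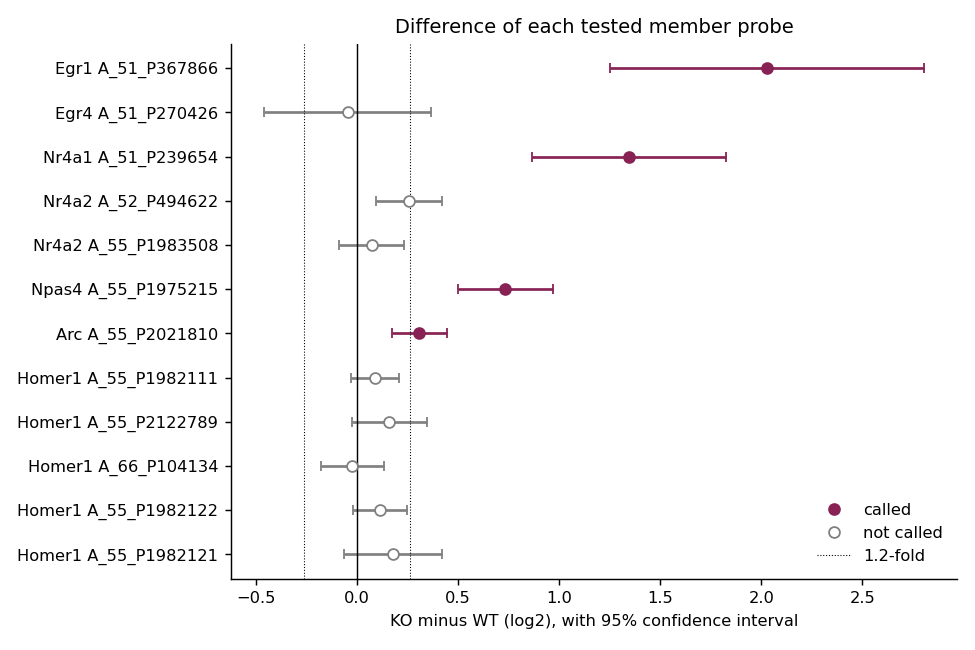
KO minus WT (log2) of the 12 tested probes with 95% confidence intervals from limma (4 WT and 4 KO samples); filled points were called, open points were not, and dotted lines mark a 1.2-fold change. Egr1 (2.03), Nr4a1 (1.35) and Npas4 (0.73) lie beyond the 1.2-fold line with their whole interval, the interval of Arc (0.31) crosses it, and those of Egr4, Homer1 and the dimmer Nr4a2 probe include 0.

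The order of the KO samples differed between the called genes. Egr1 and Nr4a1 were highest in KO 2 and next in KO 1, whereas Npas4 and Arc were highest in KO 4 and next in KO 2. Within WT, sample 2 was the highest for Egr1, Nr4a1 and Npas4, and sample 3 for Arc. The SD was larger in KO than in WT for 7 of the 12 probes, beside 56.2% of all tested probes.

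For each called gene, the 4 probes of other named genes with the nearest pattern were taken by the mean absolute difference over the 8 arrays, after each probe was centred on its own mean. For Egr1 these were Nr4a1 (0.364), the AP-1 subunit Fos (0.383), the complement component C4b (0.426) and Poteg (0.439), and for Nr4a1 C4b (0.215), Poteg (0.216), Fos (0.235) and the nuclear factor Csrnp1 (0.273). Npas4 lay nearest to the leukocyte antigen Cd52 (0.0854), the stress-induced factor Atf3 (0.0874), the microglial adaptor Tyrobp (0.0895) and the metallothionein Mt2 (0.0913). Arc lay nearest to the glutathione transferase Gstt3 (0.0255), Dock5 (0.0304), Paqr6 (0.0312) and Mpp6 (0.0313). All 4 called genes and these neighbours were higher in KO on the same 8 arrays, and the values describe likeness of pattern alone.

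Other activity-induced genes were counted in the same fit. Of 27 genes, 24 were tested, 5 were called higher (Fosb, Fos, Junb, Per1 and Gadd45b) and 0 lower, beside 2.19% of all tested genes called higher. Their median difference was 0.13, and 19 of 24 were above 0. At an unadjusted limma p under 0.05, 14 were higher and 1 lower by any probe, beside 23.8% of all tested probes in either direction. The methods' t-test called 4 and 0. The AP-1 subunits Fosb (1.54, SE 0.16) and Fos (1.42, SE 0.14) rose most, followed by Junb (0.58, SE 0.08), the clock gene Per1 (0.36, SE 0.05) and the stress gene Gadd45b (0.31, SE 0.07; adjusted p = 0.0421). The first 4 kept their call without each array in turn, and Gadd45b lost it without any 1 of the WT arrays, KO 2 or KO 4 (adjusted p up to 0.100). Under normexp the differences were 1.30 for Fos, 0.99 for Fosb, 0.38 for Per1 and 0.33 for Junb, so that both orders turned, and Gadd45b (0.24, adjusted p = 0.0635) lost its call. The growth factor Bdnf (0.06, SE 0.09) and the neuropeptide precursors Vgf (0.14, SE 0.05) and Penk (0.14, SE 0.10) were among the 19 that were not called. Scg2, a granin, differed by 0.24 (adjusted p = 0.0252), under the required fold change. Ptgs2 was not well above background on any array.

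**Figure D4:**
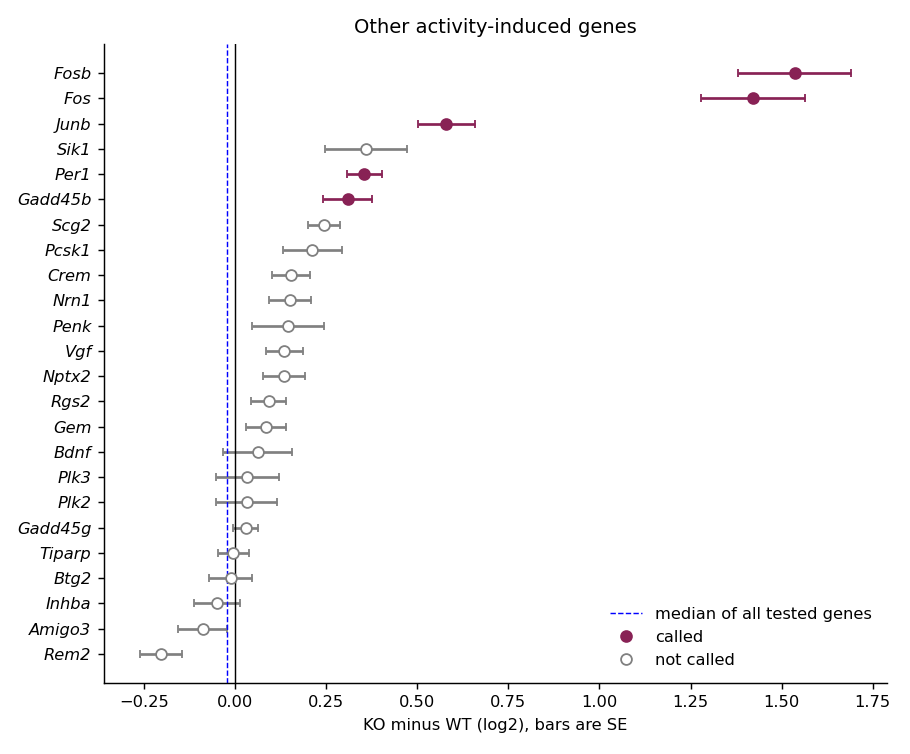
KO minus WT (log2) of the 24 tested genes among 27 other activity-induced genes, with the SE as bars (4 WT and 4 KO samples); filled points were called and the dashed line is the median of all tested genes. Fosb and Fos lie above 1.4, the 3 other called genes between 0.31 and 0.58, and the lowest gene is Rem2 at -0.20.

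Factors that act on these promoters were counted next. Of 16 such genes, all tested, 1 was called higher and 0 lower, beside 2.19% and 1.77% of all tested genes, and the methods' t-test called 0. The median difference was -0.04, and it lay between -0.02 and 0.00 under quantile normalization, cyclic loess, normexp and the percentile of detected probes. Of the 16, 3 were higher and 2 lower at an unadjusted limma p under 0.05, beside 23.8% of all tested probes in either direction. Srf differed by -0.04 (SE 0.04, adjusted p = 0.595; -0.14 by its second probe) and Creb1 by -0.08 (SE 0.07, adjusted p = 0.536; 0.00 by its second probe). The called gene was Mef2c, an activity-regulated MADS-box factor (0.31, SE 0.06, adjusted p = 0.0352), and the call held in 1 of 8 fits that left out an array, that without KO 3 (adjusted p up to 0.0993, without WT 2). It also ended under normexp, where the difference of 0.26 was under the required fold change.

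Among 8 partners of the Egr, Nr4a and Npas4 proteins, 1 was called higher and 0 lower, beside 2.19% and 1.77% of all tested genes. The median was 0.00, and 0.02 to 0.03 under quantile normalization, cyclic loess and normexp. Of the 8, 4 were higher and 2 lower at an unadjusted limma p under 0.05, beside 23.8% of all tested probes in either direction. The called gene was Nab2, the corepressor that Egr factors induce and that in turn restrains them. It lay between -0.36 and 0.23 in WT and between 0.50 and 0.57 in KO, a difference of 0.61 (SE 0.11, adjusted p = 0.0242). The call was lost without WT 2, WT 3, KO 2, KO 3 or KO 4 (adjusted p up to 0.0726, without WT 2). Nab1 differed by 0.24 (SE 0.06, adjusted p = 0.0603), and Arnt2 by -0.08 (SE 0.06, adjusted p = 0.458). The RXR receptor Rxra differed by -0.27 (SE 0.10, adjusted p = 0.148), and by -0.03 with its second probe. The probes of Rxrg went in opposite directions, each with separate genotypes. The brighter differed by 0.11 (SE 0.04, adjusted p = 0.172) and the other by -0.42 (SE 0.10, adjusted p = 0.0561).

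At the synapse, 13 of 14 partners of Arc and Homer proteins were tested. Dlgap1, a scaffold protein, was called higher by 1 of its 3 probes (0.30, adjusted p = 0.0468), and 0 were called lower. Among all tested genes, 2.19% were called higher and 1.77% lower. The median was 0.05, and lay between 0.01 (without WT 3) and 0.08 (under cyclic loess) in the alternatives. Of the 13, 4 were higher and 0 lower at an unadjusted limma p under 0.05, beside 23.8% of all tested probes in either direction. The methods' t-test called 0. The Dlgap1 call was kept only without KO 1, and its adjusted p rose to 0.104 without KO 4. Itpr1, the calcium release channel that Homer binds, differed by 0.25 (SE 0.04, adjusted p = 0.0144), under the required fold change, and the glutamate receptor Grm5 by 0.14 (SE 0.04, adjusted p = 0.107), which did not pass.

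Some markers of retinal cell types differed between genotypes on the same arrays, beside 2.19% of all tested genes called higher and 1.77% called lower. The 10 rod markers tested were all lower in KO, 3 of them called (Nr2e3 -0.50, Sag -0.36 and Gnb1 -0.30), with a median of -0.21. Under quantile normalization, cyclic loess and normexp 2 of the 10 were above 0, and the median was -0.11, -0.12 and -0.07. Sag (-0.20) and Gnb1 (-0.21) fell below the required fold change under normexp. Their summed level, in multiples of the 75th percentile, was 2074 to 2168 in WT and 1776 to 1862 in KO. Higher calls were made for 3 of 10 Müller glia markers (Kcnj10 0.31, Clu 0.30 and Apoe 0.29), 2 of 9 cone markers (Arr3 0.46 and Opn1sw 0.43) and 5 of 11 markers of microglia and macrophages (among them Tyrobp 0.65, C1qc 0.57 and C1qb 0.54). The medians of these lists were 0.16, 0.20 and 0.28. At an unadjusted limma p under 0.05, 8 rod markers were lower and 7 Müller, 7 cone and 9 microglial markers higher. Of all tested probes, 23.8% passed this in either direction. The methods' t-test called 3 lower and 3, 1 and 5 higher. The Müller sum was 305 to 325 in WT and 364 to 376 in KO, the cone sum 208 to 214 and 237 to 248, and the microglial sum 27.9 to 35.8 and 31.1 to 37.2. Most of the microglial sum came from 1 bright Itgam probe that differed by 0.02.

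Markers of the inner retinal neurons were not called. Of 13 amacrine and horizontal, 10 ganglion and 10 bipolar cell markers 0 were called in either direction, with medians of 0.06, 0.05 and 0.03. At an unadjusted limma p under 0.05, 5, 3 and 2 of them were higher and 0 lower, beside 23.8% of all tested probes in either direction. The methods' t-test called 0. These medians were 0.13, 0.09 and 0.10 under quantile normalization, and 0.13, 0.09 and 0.10 under cyclic loess, where 1 amacrine or horizontal marker was called higher by each. The amacrine and horizontal sum was 144 to 146 in WT and 155 to 157 in KO, the ganglion sum 186 to 188 and 192.5 to 199.6, and the bipolar sum 251 to 281 and 263.7 to 279.9. The first 2 sums were thus separate between genotypes and the last overlapped. One marker was called higher for endothelium (Flt1, 1 of 6) and for lens (Cryab, 1 of 6), beside 2.19% of all tested genes. Their medians were -0.14 and 0.18. The endothelial median was -0.07 under normexp. The lens median was 0.09 without KO 4, and 0.28 when only probes well above background on all arrays were tested. Of the 6 endothelial markers 5 were lower in KO, by up to -0.63, and at an unadjusted limma p under 0.05 there were 1 higher and 3 lower, against 1 and 0 for lens. None was called of 4 astrocyte, 5 pigment epithelium and 4 red blood cell markers (0 of each), with medians of 0.22, 0.10 and 0.08 (3, 1 and 0 higher and 0 lower at an unadjusted limma p under 0.05, and 0 called by the methods' t-test). With 1 array left out, the pigment epithelium median lay between 0.05 (without KO 1) and 0.19 (without WT 1). The blood median then lay between -0.01 (without KO 1) and 0.17 (without WT 4). Sums overlapped between genotypes for endothelium (23.0 to 23.6 in WT and 22.0 to 23.3 in KO), pigment epithelium (14.0 to 17.2 and 14.6 to 17.8) and blood (10.2 to 13.6 and 11.1 to 16.0), and were separate for astrocytes (5.71 to 6.88 and 7.37 to 7.58) and lens (8.42 to 9.13 and 10.05 to 10.97). Across both groups of lists, leaving out an array ended the call of Kcnj10 (KO 2), Clu (WT 2 or KO 2), the microglial genes Aif1 (WT 2, WT 3, KO 2, KO 3 or KO 4) and C1qa (WT 3, KO 2, KO 3 or KO 4), Nr2e3 and Opn1sw (each array but KO 1), Flt1 (each but WT 2 and KO 1) and Cryab (each but WT 4 and KO 1), with adjusted p up to 0.107. No marker of these lists was below background on all 8 arrays, and the part of cell composition in the differences of the Egr, Nr4a and synaptic genes was not tested.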

How the data were processed

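Total RNA of the whole retina was hybridised by the authors in 1 colour to Agilent SurePrint G3 mouse arrays and quantified with Agilent Feature Extraction 10.7.1.1. Per the file headers, the deposited scanner files hold processed intensity on a linear scale, background-subtracted and not scaled between arrays. The deposited series table holds the authors' log2 values after a 75th percentile shift, which differed from the levels used here by a constant per array and served as an alternative.

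Levels were log2 intensity minus its 75th percentile among the non-control spots of each array, with flagged spots left out and repeated spots averaged. Symbols came from RefSeq by transcript accession (26407 probes, 47.4%). Tests used limma 3.58.1 in R 4.3.3 without covariates, and a gene was called when 1 of its probes was. For a gene with several probes, the brightest gave its value. The members, the other lists and the rule for named genes (each member, up to 6 called genes of a pathway list, up to 3 of a marker list, the 4 probes nearest each called member) were chosen with earlier results of these data known. Genes named outside that rule were chosen after their values were seen. The number of arrays limits the precision. Alternatives were other scalings, background corrections, filters, thresholds and fits, the replicate number as a block, and each array left out. The fits were tested on simulated data.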

Additional observations from a re-analysis of the deposited data

Results flagged for a closer look

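Among 30 groups of 4 values examined, 1 held a value far from the rest: the Homer1 probe A_55_P2122789 was at -0.94 in KO 2, against a median of -1.14 in the other 3 KO samples (gap over range 0.87, beyond Dixon's 95% critical value for 4 values). Chance alone flags about 1 in 20 groups.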

How the results depend on the processing

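The number of called probes (992) was 246 with no filter on dim probes, 1869 with no minimum fold change, 138 at a minimum of 1.5, 395 with the replicate number as a block, and 369 to 1183 with 1 array left out. The number of member genes called higher (4) was 2 with no filter (Npas4 and the dim Egr2), 3 with the block, where Arc was lost (adjusted p = 0.0654), and 1 (without WT 3) to 4 with 1 array left out. The number of other activity-induced genes called higher (5) was 2 at a minimum fold change of 1.5, 3 with the block, and 4 to 6 with 1 array left out. No member and no other activity-induced gene was called lower (0) in any alternative. Of the single probes, Egr4 (-0.05) was at 0.00587 under cyclic loess and from -0.149 to 0.0964 with 1 array left out, and the Homer1 probe A_66_P104134 (-0.02) was at 0.00354 under cyclic loess and from -0.0684 to 0.0193 with 1 array left out. Same-numbered samples shared a number and a slide column, but no animal, litter or batch given in the labels. With this block Junb (adjusted p = 0.0527), Gadd45b (0.0761), Mef2c (0.0517), Nab2 (0.0570) and Dlgap1 (0.0701) also lost their calls, as did the named markers Kcnj10 (0.0571), Clu (0.0571), Aif1 (0.0570), Nr2e3 (0.0580), Opn1sw (0.0803) and Flt1 (0.0580), while Egr1, Nr4a1 and Npas4 kept theirs (0.0386, 0.0378 and 0.0316). Deviations of same-numbered samples from the group means correlated at 0.249, 0.0686, 0.0371 and 0.112. Each KO sample correlated best with the WT sample of its number, and each WT sample but WT 3 with the KO sample of its number. WT 3 correlated best with KO 4 (0.0451). These correlations do not settle whether the numbers pair the samples, so fits without and with the block are both given.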
